A study of Mus musculus with 17 samples.

Results

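The 78 genes described here are named as mitochondrial ribosomal proteins, although Mrps36 is no longer counted as one. They were taken as every gene symbol made of Mrpl or Mrps followed by a number, pseudogene names left out, with at least 10 counts in at least 3 libraries. All 78 symbols that matched met that minimum and none was dropped, so the set holds 49 Mrpl and 29 Mrps genes of 35321 genes in the count table and of 14920 genes that were tested. The rule uses names and detection only, not the response to any treatment.

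The study profiled RNA from hematopoietic stem and progenitor cells (HSPCs), the blood-forming cells of the bone marrow, sorted by flow cytometry from wild-type C57BL/6J mice. Lipopolysaccharide (LPS), the outer-membrane molecule of Gram-negative bacteria and a standard inflammatory stimulus, had been injected into the peritoneum alone or together with an antibody that blocks the receptor of the anti-inflammatory cytokine IL-10, and marrow was taken 24 or 72 h later. The 17 libraries formed 5 groups: 5 libraries from mice given phosphate buffered saline (PBS), labelled as day 0; 3 from LPS at 24 h; 3 from LPS with the antibody at 24 h; 3 from LPS at 72 h; and 3 from LPS with the antibody at 72 h. The amounts are written as 5 for LPS and 100 for the antibody, in micrograms in one place of the labels and in milligrams in another, so no dose is given here. All groups shared the wild-type background, and no group received the antibody without LPS or was sampled after PBS at 24 or 72 h. The labels give neither age nor sex, and do not say whether replicates came from separate mice, so p-values measure only the spread between these samples, which may be technical.

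Mitochondria keep a small genome whose messages code for core subunits of the respiratory chain, and they translate those messages on ribosomes of their own. Nuclear genes encode every protein of these mitochondrial ribosomes: the Mrpl proteins make up most of the large subunit, which forms peptide bonds, and the Mrps proteins most of the small subunit, which decodes the message. Many of them descend from bacterial ribosomal proteins, and others exist only in mitochondria. Quiescent blood stem cells are known for low mitochondrial activity and a reliance on glycolysis, while progenitors that leave quiescence depend more on respiration.

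Promoters of 4 members are shown because these genes mark the range of responses described below. Mrpl12 and Mrps18b were among the members that rose most at 24 h and Mrpl16 rose at 24 h in both LPS groups, whereas Mrpl14 passed no test in any comparison. The sequences are from RefSeq on GRCm38.p6, run 5′ to 3′ on the strand of the gene from 250 bases before to 50 bases after the annotated start, and capitals mark a match on either strand to the nuclear respiratory factor 1 (NRF1) motif GCGCANGCG. They lie at chr11:120484387-120484686 (plus strand) for Mrpl12, chr17:35916391-35916690 (minus strand) for Mrps18b, chr19:11770165-11770464 (plus strand) for Mrpl16 and chr17:45686099-45686398 (plus strand) for Mrpl14.

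Mrpl12: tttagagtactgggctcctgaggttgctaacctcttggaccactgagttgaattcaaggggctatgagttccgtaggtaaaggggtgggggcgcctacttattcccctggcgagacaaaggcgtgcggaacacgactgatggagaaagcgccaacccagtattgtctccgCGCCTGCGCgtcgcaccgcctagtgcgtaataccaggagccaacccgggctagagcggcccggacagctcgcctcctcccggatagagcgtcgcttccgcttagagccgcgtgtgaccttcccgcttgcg
Mrps18b: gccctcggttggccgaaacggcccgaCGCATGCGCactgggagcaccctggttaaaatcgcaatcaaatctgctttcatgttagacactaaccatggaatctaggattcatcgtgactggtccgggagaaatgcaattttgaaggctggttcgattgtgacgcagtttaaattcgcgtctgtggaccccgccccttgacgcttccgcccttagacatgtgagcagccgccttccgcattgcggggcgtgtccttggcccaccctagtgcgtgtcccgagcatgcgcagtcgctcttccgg
Mrpl16: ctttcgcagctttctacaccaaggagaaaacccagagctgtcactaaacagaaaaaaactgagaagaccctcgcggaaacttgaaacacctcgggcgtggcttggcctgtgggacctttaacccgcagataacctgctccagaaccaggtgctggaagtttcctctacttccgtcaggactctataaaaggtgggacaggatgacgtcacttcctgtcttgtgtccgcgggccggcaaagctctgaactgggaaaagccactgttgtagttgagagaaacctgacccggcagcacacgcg
Mrpl14: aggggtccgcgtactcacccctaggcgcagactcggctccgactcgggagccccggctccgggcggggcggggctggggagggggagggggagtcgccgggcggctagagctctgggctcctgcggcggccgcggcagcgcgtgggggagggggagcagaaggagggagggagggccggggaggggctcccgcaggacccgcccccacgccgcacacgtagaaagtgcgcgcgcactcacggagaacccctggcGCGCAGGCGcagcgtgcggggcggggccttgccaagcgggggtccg

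The Mrpl12, Mrps18b and Mrpl14 windows each held 1 NRF1 match, while the Mrpl16 window held no match to any of the 4 motifs searched. The table held promoters for 69 of the 78 genes, in 75 windows, and the 9 genes without an entry have no promoter shown or counted. The NRF1 motif was in 21.3% of the member windows and in 6.25% of all 32851 windows of the same length. Those windows were not limited to the genes tested here, so shares among expressed genes alone are not known. The ETS motif CCGGAAGT, recognised by GABP and related factors, was in 16% against 3.89%, the YY1 motif AAGATGGC in 16% against 2.75%, and the E-box CACGTG, a palindrome bound by MYC among others, in 9.33% against 7.15%. At least 1 of the 4 motifs was present for 39 genes and none for 30. The median log2 change from PBS to LPS at 24 h was 0.74 for the 16 genes with an NRF1 match and 0.89 for the 53 without. For the YY1 motif it was 0.94 for 12 genes with a match and 0.84 for 57 without. A match describes the letters of the window and not a bound site.

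The libraries held 10516722 to 16006001 counts. Scaling factors (TMM, which set a typical gene equal between libraries) lay between 0.947 and 1.12, except that LPS 24 h replicate 1 had 0.799. That library also had the highest member level, and its name in the count table is written in another style, as is that of replicate 1 of LPS with antibody at 24 h. Levels are given as CPM, a gene's count scaled to the TMM-adjusted size of its library. The stem and progenitor genes were present: Kit, the stem cell factor receptor, ranged from 228 to 589 CPM over the 17 libraries, and Cd34, a progenitor surface marker, from 234 to 848 CPM. The T cell gene Cd3e lay between 0 and 3.19 CPM, although a list of 8 T and NK cell markers summed to 58.1 to 277 CPM. Csf1r, the macrophage growth factor receptor, was counted in every library, from 61.6 to 328 CPM. In whole sorted samples, fewer cells of a type and less RNA per cell cannot be told apart.

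The members took 0.422%, 0.365%, 0.346%, 0.387% and 0.346% of all counts in the 5 PBS libraries, and 0.706%, 0.488% and 0.509% in the 3 LPS 24 h libraries. With the antibody the shares were 0.471%, 0.523% and 0.513% at 24 h. At 72 h they were 0.39%, 0.43% and 0.334% after LPS and 0.396%, 0.443% and 0.479% after LPS with antibody. All 6 libraries from 24 h lay above all 5 PBS libraries, and the LPS 72 h libraries spread over the PBS range and slightly past both of its ends.

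The mean log2 CPM over the 78 genes gave the same order of groups. It was 5.36 ± 0.17 (SD, n = 5) in PBS, 6.17 ± 0.46 (n = 3) in LPS at 24 h and 5.94 ± 0.09 (n = 3) with the antibody at 24 h. At 72 h it was 5.47 ± 0.23 (n = 3) after LPS and 5.71 ± 0.17 (n = 3) after LPS with antibody. The LPS 24 h libraries were at 6.69, 5.86 and 5.94, so replicate 1 set the width of that group, and the other 2 libraries were level with the antibody group at 5.84, 5.98 and 6.00. The LPS 72 h values of 5.53, 5.67 and 5.22 overlapped the PBS values of 5.58, 5.35, 5.19, 5.49 and 5.2. The antibody 72 h values of 5.56, 5.68 and 5.89 overlapped them with the lowest library only.

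**Figure D1:**
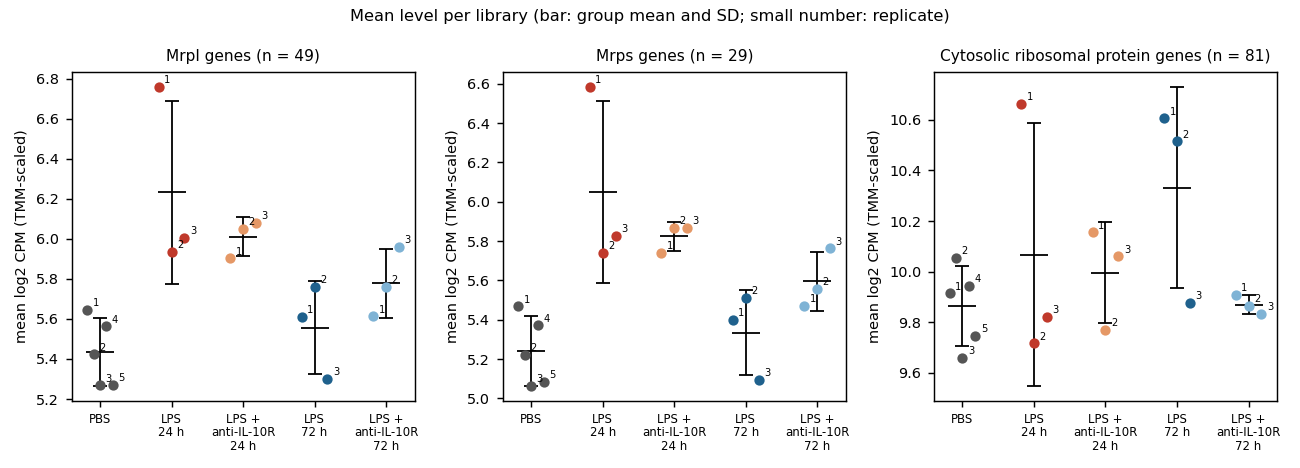
Mean log2 CPM per library, by treatment group, for the 49 Mrpl genes, the 29 Mrps genes and 81 cytosolic ribosomal protein genes; points are libraries, small digits their replicate numbers, and bars the group mean and SD. In both mitochondrial panels all 24 h libraries lie above the PBS libraries and LPS 24 h replicate 1 lies far above the rest, while in the cytosolic panel 2 of the 3 LPS 24 h libraries lie among the PBS libraries.

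At 24 h after LPS the mRNA level of most of the 78 members was higher. Against PBS, 70 of the 78 members were higher and 0 were lower, where a call means an adjusted p below 0.05 in edgeR's quasi-likelihood test with Benjamini-Hochberg adjustment over all 14920 genes. Of all genes tested, 19.1% were called higher and 18.5% lower in this comparison. The change was above 0 for 78 of 78 members, with a median of 0.87 on the log2 scale (1.83-fold) and a range from 0.22 to 1.51, while the median over all genes was -0.027. For 69 members every LPS 24 h library lay above every PBS library, which held for 20.6% of all genes. With LPS 24 h replicate 1 left out, 54 of the 70 remained called higher, the median was 0.56, and the share of all genes called higher was 11.8%. This fit did not pair libraries by replicate number, and a fit with that number as block called fewer members, as given further below.

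Mrpl12, a large-subunit protein of the stalk that also binds the mitochondrial RNA polymerase, showed the greatest change. Its level was 139.5, 87.7, 82.0, 106 and 85.6 CPM in the PBS libraries and 453, 192 and 211 CPM in the LPS 24 h libraries. The groups did not overlap, and the first LPS library stood far above the other 2. The log2 change was 1.51 (SE 0.26, edgeR adjusted p = 0.000884).

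Mrps18b, a small-subunit protein related to bacterial S18, was at 49.5, 27.6, 29.7, 40.8 and 29.2 CPM after PBS and at 123, 62.7 and 80.0 CPM after LPS. Again the lowest LPS library exceeded the highest PBS library. The log2 change was 1.32 (SE 0.21, edgeR adjusted p = 0.000561). Mrpl16, which sits close to the peptidyl transferase centre, was at 46.3, 38, 36.8, 44.0 and 37.0 CPM after PBS and at 135, 77.0 and 77.9 CPM after LPS. It had the smallest adjusted p of the 12 members with the greatest rise (log2 change 1.26, SE 0.16, edgeR adjusted p = 0.000397). Mrps22, a protein of the small subunit found only in mitochondria, went from 32.5, 21.5, 20.8, 26.9 and 21.0 CPM to 62.6, 48.1 and 47.6 CPM, with a log2 change of 1.10 (edgeR adjusted p = 0.000523). Its 3 LPS libraries were closer together than those of Mrpl12.

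The rest of these 12 members were Mrpl20 (log2 change 1.37), Mrpl22 (1.18), Mrpl38 (1.15), Mrps24 (1.15), Mrpl51 (1.14), Mrpl15 (1.13), Mrpl55 (1.13) and Mrpl41 (1.13), with edgeR adjusted p-values from 0.000597 to 0.00447. Mrpl20, Mrpl22 and Mrpl15 have bacterial counterparts in the large subunit, whereas Mrpl38, Mrpl51 and Mrpl41 are found only in mitochondria. Mrpl41 lost its call without LPS 24 h replicate 1 (log2 change 0.60, edgeR adjusted p = 0.0549), and the other 11 kept theirs. With the replicate number as block all 12 stayed called, with larger edgeR adjusted p-values, from 0.0052 (Mrpl16) to 0.0329 (Mrpl41).

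**Figure D2:**
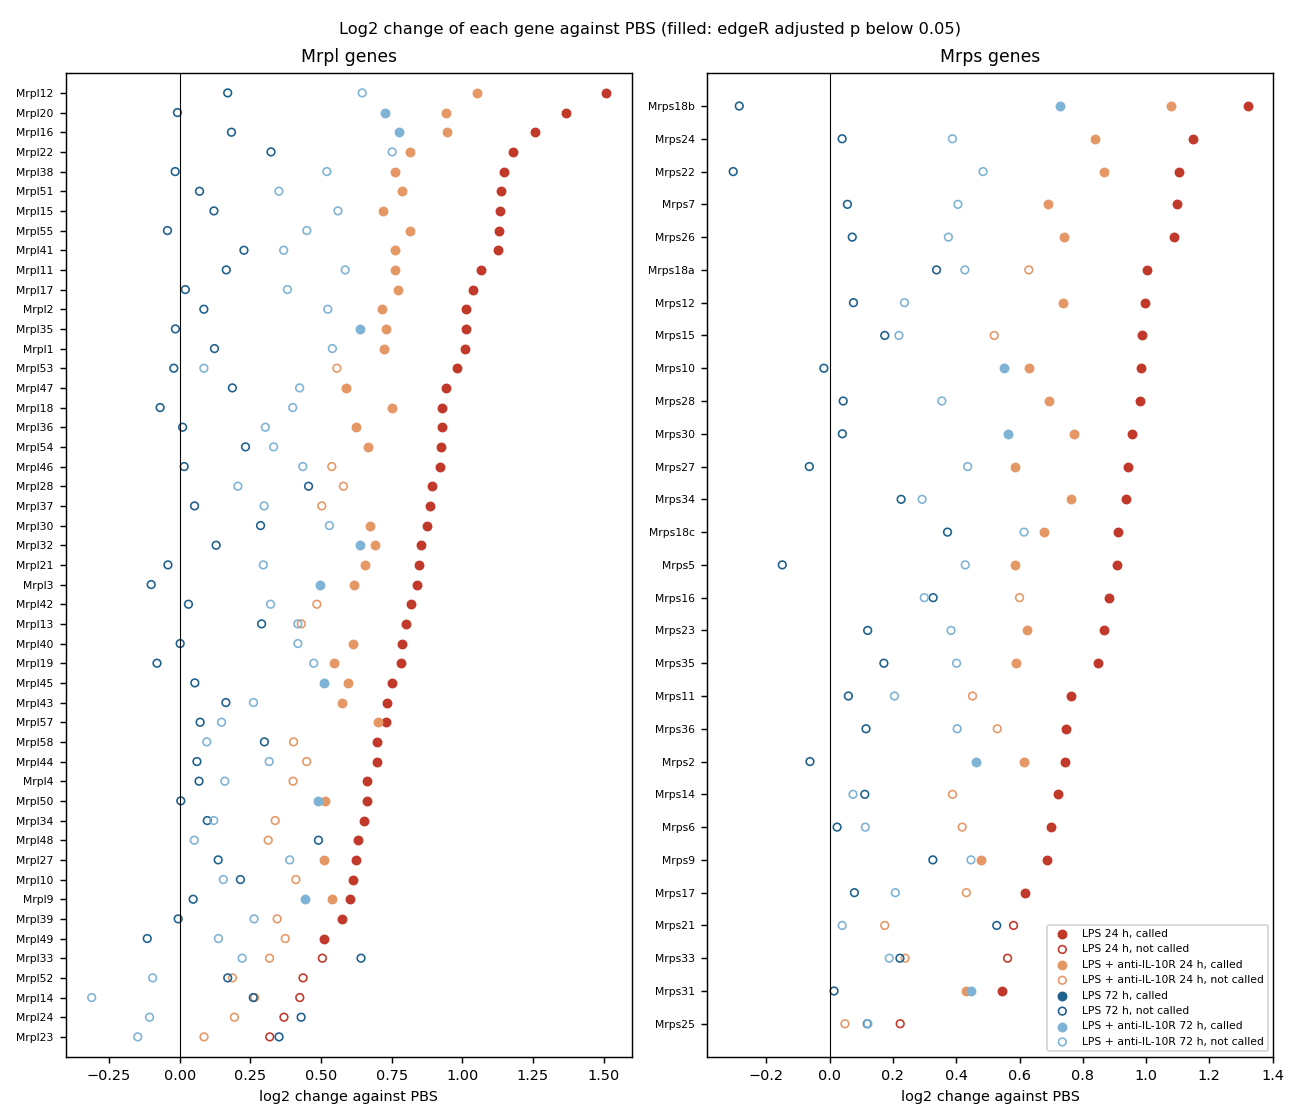
Log2 change of each of the 49 Mrpl and 29 Mrps genes against PBS in 4 comparisons, ordered by the change in LPS at 24 h; filled circles passed the edgeR threshold of 0.05 and open circles did not. The LPS 24 h points run from 0.22 to 1.51, the antibody 24 h points lie to their left for every gene (a position that turns for 55 of 78 genes without LPS 24 h replicate 1), and the LPS 72 h points, none filled, lie around 0.

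The rise took in both subunits and both evolutionary classes to a similar degree. It was called for 44 of 49 Mrpl genes (median log2 change 0.85) and for 26 of 29 Mrps genes (0.91). Among large-subunit members with a bacterial counterpart 25 of 29 were called, with a median of 0.88, and among those found only in mitochondria 19 of 20, with a median of 0.77. In the small subunit the counts were 14 of 15 (median 0.88) and 9 of 11 (median 0.94). The 11 include Mrps18b, which was classed there although it is related to bacterial S18. The other 3 members, Mrpl55 and Mrps36 among them, were placed in neither class and were called higher too.

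Members with roles beside a place in the ribosome, or with close relatives in the set, changed in the same direction. Mrps12, whose bacterial counterpart S12 helps to read the codon, had a log2 change of 1.00 (edgeR adjusted p = 0.00358). Mrpl58, a peptidyl-tRNA hydrolase that frees stalled chains and is also built into the large subunit, had 0.70 (edgeR adjusted p = 0.0181, or 0.0759 with the replicate number as block). Mrps36, now counted as a subunit of the 2-oxoglutarate dehydrogenase complex and not as a ribosomal protein, had 0.75 (edgeR adjusted p = 0.00622). The 3 relatives of bacterial S18 occupy different places in the ribosome: Mrps18a, in the large subunit, had 1.00 and Mrps18c 0.91, against the 1.32 of Mrps18b. In the fit without LPS 24 h replicate 1, Mrpl58, Mrps36, Mrps18a and Mrps18c were no longer called, whereas Mrps12 and Mrps18b were.

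**Figure D3:**
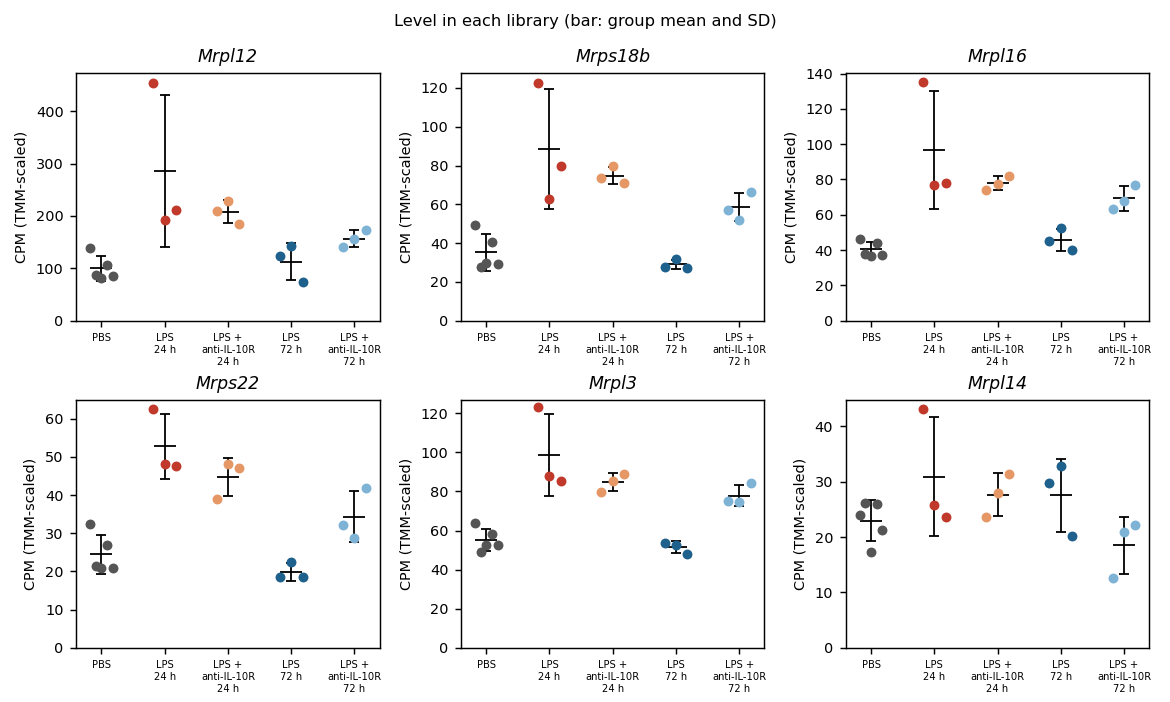
CPM of Mrpl12, Mrps18b, Mrpl16, Mrps22, Mrpl3 and Mrpl14 in each of the 17 libraries by group, on axes that start at 0; points are libraries and bars the group mean and SD. For every gene but Mrpl14 the LPS 24 h points lie above all PBS points, and for Mrps18b and Mrps22 the LPS 72 h points lie in or below the lower part of the PBS range.

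Markers of other blood cells moved between the same groups, and their part in the result was not tested. Summed over 10 monocyte-macrophage markers the level was 550 to 2720 CPM in PBS and 331 to 691 CPM in LPS at 24 h, with 9 of 10 genes called lower, and over 8 B-lymphoid and plasma cell markers it was 381 to 1330 CPM against 71.6 to 93.6 CPM, with 3 called lower. The 11 HSPC markers summed to 1980 to 2850 CPM in PBS and to 1260 to 1510 CPM in LPS at 24 h, with 7 called lower, among them Flt3, a receptor of lymphoid-primed progenitors (log2 change -2.45, edgeR adjusted p = 0.00113). Of 10 erythroid markers 1 was lower (190 to 336 CPM in sum against 270 to 608 CPM), of 8 T and NK cell markers 1 was lower (95.1 to 267 CPM against 114 to 277 CPM), and of 8 neutrophil markers 0 were called (37.9 to 1510 CPM against 51.4 to 424 CPM). No marker was at 0 in all libraries of a group.

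The remaining 8 members were called neither here nor in any other comparison: Mrpl14, Mrpl23, Mrpl24, Mrpl33, Mrpl52, Mrps21, Mrps25 and Mrps33. Mrpl14, a large-subunit protein with a bacterial counterpart, was at 24.1, 26.1, 17.4, 26.0 and 21.3 CPM after PBS and at 43.2, 25.8 and 23.7 CPM after LPS. Only the first LPS library stood above the PBS range, and the log2 change of 0.43 had an edgeR adjusted p of 0.162. Mrps25, a small-subunit protein found only in mitochondria, showed the smallest change of the set, at 88.4, 83.0, 92.0, 90.1 and 96.6 CPM after PBS and at 124, 102 and 89.0 CPM after LPS (log2 change 0.22, edgeR adjusted p = 0.133). The log2 changes of all 8 lay between 0.22 and 0.58, below the median of the set. Overlapping annotation touches some of these values: the opposite-strand gene Nr2c2 covers 69.8% of the exon length of Mrps25, Rrnad1 26.3% of Mrpl24 and Tmem63b 11.2% of Mrpl14, and whether counting used strand is not given in the sources used here.

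The members varied together across libraries. The median correlation of log2 CPM between pairs of members was 0.863 over the 17 libraries, and 100% of the 3003 pairs were above 0. With the group means subtracted, so that only differences among replicates were left, the median was 0.782. These are descriptions over libraries that share depth and scaling. Mrpl47 followed the mean of all members most closely (r = 0.986), and Mrpl23 (0.447), Mrpl52 (0.455), Mrpl33 (0.491), Mrps25 (0.54) and Mrpl24 (0.552) least.

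Several of the least typical members ran closer to the cytosolic ribosome, the separate ribosome that translates nuclear messages. The correlation with the mean of 81 cytosolic ribosomal protein genes, over the same 17 libraries, was 0.913 for Mrpl23, 0.855 for Mrps21, 0.75 for Mrpl24 and 0.729 for Mrpl52, against a median of 0.364 over the 78 members. For 7 members it exceeded the correlation with the mitochondrial set, and 6 of those 7 were among the members never called, the other one being Mrpl48. The cytosolic genes themselves had a median log2 change of 0.28 at 24 h, with 8 of 81 called higher and 1 lower.

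At 72 h after LPS no mitochondrial ribosome gene passed the test against PBS. EdgeR called 0 of 78 members, with 4 at an unadjusted p below 0.05 (11.4% of all genes), and DESeq2's Wald test called 0 as well. Of all genes tested, 0.0201% were called higher and 0 lower, so this comparison made almost no calls anywhere. The median member change was 0.077, with 61 of 78 above 0, from -0.30 for Mrps22 to 0.64 for Mrpl33. The direction of that median was not stable: it was -0.018 with plain CPM, and -0.0013 without LPS 72 h replicate 2.

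From 24 to 72 h after LPS, 57 of 78 members fell and 0 rose, where 16.4% of all genes were called lower and 14.7% higher. The median log2 change was -0.74. For 56 members every 72 h library lay below every 24 h library, which held for 23% of all genes. Leaving out LPS 24 h replicate 1, 28 of the 57 were still called lower and the median was -0.43, and the share of all genes called lower was 11.7%.

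Mrps18b fell furthest: from 123, 62.7 and 80.0 CPM at 24 h to 27.9, 31.8 and 27.4 CPM at 72 h. The 3 late libraries were at the level of the lowest PBS libraries. The log2 change was -1.61 (SE 0.24, edgeR adjusted p = 0.000356). Mrps22 went from 62.6, 48.1 and 47.6 CPM to 18.6, 22.6 and 18.4 CPM (log2 change -1.41, edgeR adjusted p = 0.000239), Mrpl20 changed by -1.38, Mrpl12 by -1.34 and Mrpl55 by -1.17. Mrpl12 was the most uneven of these at 72 h, with 123, 142 and 73.1 CPM. Mrpl23, which tracked the cytosolic set (r = 0.913), changed by 0.03. Mrpl33, which followed it less closely (r = 0.573), changed by 0.14, and both passed no test. Between these groups the HSPC markers also moved, with 8 of 11 called higher at 72 h, and 3 of 10 erythroid markers were lower (270 to 608 CPM in sum at 24 h and 5.85 to 91.7 CPM at 72 h). Of the monocyte-macrophage and B-lymphoid markers 1 each was higher, and of the neutrophil and T and NK cell markers 0 were called. Their part in the result was not tested.

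At 24 h the antibody group, like LPS alone, had higher levels than PBS. Against PBS, 48 of 78 members were higher and 0 lower, where 11.7% of all genes were called higher and 12.5% lower. The median log2 change was 0.59 (1.51-fold), and 78 of 78 changes were above 0. In 60 members all 3 libraries exceeded all PBS libraries, against 14.2% of all genes. This comparison shares its PBS libraries with that of LPS alone, whose median of 0.87 was 0.56 without LPS 24 h replicate 1. The count depended on single libraries: 12 members were called without antibody 24 h replicate 2, 30 without its replicate 3 and 30 without PBS replicate 2, while the median stayed between 0.57 and 0.68. The shares of all genes called in these fits are not given here, so a general loss of calls cannot be told apart.

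Mrps18b showed the greatest change here, with 73.5, 79.6 and 71.1 CPM in the antibody libraries (log2 change 1.08, SE 0.21, edgeR adjusted p = 0.00473). Mrpl12 followed with 209, 229 and 185 CPM (1.05), Mrpl16 with 74.3, 77.5 and 81.9 CPM (0.95), Mrpl20 with 81.6, 102 and 109 CPM (0.94) and Mrps22 with 39.0, 48.0 and 47.1 CPM (0.87). These 5 were also among the 12 with the greatest change after LPS alone. Of the HSPC markers 5 of 11 were lower and 1 higher, of the monocyte-macrophage markers 7 of 10 lower of the B-lymphoid markers 2 of 8 lower, and of the erythroid, neutrophil and T and NK cell markers 0 were called. The HSPC sum was 1460 to 1850 CPM, the monocyte-macrophage sum 497 to 826 CPM and the B-lymphoid sum 67.4 to 162 CPM in the antibody libraries. The erythroid sum was 1440, 312 and 20.8 CPM in replicates 1, 2 and 3, against 190 to 336 CPM in PBS. The part of these markers in the result was not tested.

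The direct comparison at 24 h found no member that differed between LPS with antibody and LPS alone. EdgeR called 0 of 78, 0 at an unadjusted p below 0.05, and DESeq2 called 0. Of all 14920 genes 0 were called by edgeR, and 1.83% had an unadjusted p below 0.05. The median log2 difference was -0.27 with 78 of 78 below 0, but that direction rested on 1 library. When LPS 24 h replicate 1 was left out the median was 0.078 and 55 of 78 members were above 0. For Mrpl12 the antibody libraries at 209, 229 and 185 CPM enclosed 2 of the LPS libraries, at 192 and 211 CPM, while the LPS library at 453 CPM stood apart.

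At 72 h the antibody group was higher than PBS for a minority of members. Against PBS, 13 of 78 were higher and 0 lower, where 6.81% of all genes were called higher and 6.43% lower. The median log2 change was 0.39 (1.31-fold), with 74 of 78 above 0. For 32 members the 3 libraries exceeded all PBS libraries, against 13.4% of all genes. Mrpl16 had the greatest change, with 63.1, 67.6 and 77.2 CPM against 36.8 to 46.3 CPM in PBS (log2 change 0.78, SE 0.17, edgeR adjusted p = 0.0115). Mrps18b (0.73), Mrpl20 (0.73), Mrpl32 (0.64) and Mrpl35 (0.64) followed. The number of calls moved with single libraries, from 2 without antibody 72 h replicate 3 to 20 without PBS replicate 1, with 4, 7 and 6 without PBS replicates 2, 3 and 5 and 7 without antibody replicate 1. Fitting these 8 libraries alone called 26, and a fit with the replicate number as block called 1. All these counts stand without the share of all genes called in the same fit, so they may follow a general change in calls. Of the T and NK cell markers 3 of 8 were lower than in PBS (58.1 to 194 CPM in sum), of the HSPC markers 2 of 11, of the monocyte-macrophage markers 2 of 10 and of the erythroid markers 1 of 10. The erythroid sum was 7.85 to 798 CPM, against 190 to 336 CPM in PBS. The part of these markers in the result was not tested.

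Compared with LPS alone at 72 h, the antibody group had 11 of 78 members higher and 0 lower. Of all genes, 8.64% were called higher and 6.48% lower, so the members' share of 14.1% higher was not far from the background. The median log2 difference was 0.27, with 65 of 78 above 0. In 27 members the antibody libraries exceeded all LPS libraries, against 17.1% of all genes. The 11 were Mrps18b, Mrps22, Mrpl35, Mrpl3, Mrpl16, Mrps5, Mrps30, Mrps2, Mrpl32, Mrpl50 and Mrps31.

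Mrps18b differed most, at 57.1, 52.1 and 66.4 CPM with antibody against 27.9, 31.8 and 27.4 CPM without. The groups were well apart, and the LPS libraries were close together. The log2 difference was 1.01 (SE 0.24, edgeR adjusted p = 0.012). Mrps22 was at 32.2, 28.9 and 41.9 CPM against 18.6, 22.6 and 18.4 CPM (0.79, edgeR adjusted p = 0.015). Mrpl3, a protein at the core of the large subunit, was at 75.1, 74.5 and 84.2 CPM against 53.7, 52.6 and 48.1 CPM (0.60, edgeR adjusted p = 0.0114), with tight libraries in both groups. Mrpl35 differed by 0.65 (edgeR adjusted p = 0.0488) and Mrpl16 by 0.59 (edgeR adjusted p = 0.0452), close to the threshold.

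In the other direction Mrpl14 was at 12.5, 20.8 and 22.1 CPM with antibody and at 29.7, 32.8 and 20.1 CPM without (log2 difference -0.57, edgeR adjusted p = 0.147). Mrpl24 (-0.54), Mrpl23 (-0.50) and Mrps21 (-0.49) were also below 0 and passed no test, and the 81 cytosolic genes had a median of -0.51. With upper-quartile scaling 5 members were called higher and 1, Mrpl24, lower, and with plain CPM 17 were higher and Mrpl24 lower. The calls depended on single libraries: 1 was left without LPS 72 h replicate 1, 6 without its replicate 2, 4 without its replicate 3, 7 without antibody replicate 1 and 3 without antibody replicate 3. Because the shares of all genes in these fits are not given, a general loss of calls cannot be told apart. Of the HSPC markers 1 of 11 (1500 to 2250 CPM in sum against 2170 to 2680 CPM) and of the monocyte-macrophage markers 1 of 10 (394 to 725 CPM against 554 to 986 CPM) were lower with antibody at 72 h, and no other marker list held a call. The median log2 difference was nonetheless 2.11 over the monocyte-macrophage markers, and -0.62 over the HSPC markers. Lists without a call moved too. Their medians were 1.94 for erythroid (7.85 to 798 CPM in sum against 5.85 to 91.7 CPM), -1.6 for T and NK cell, -1.49 for neutrophil and -0.44 for B-lymphoid markers. Their part in the result was not tested.

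**Figure D4:**
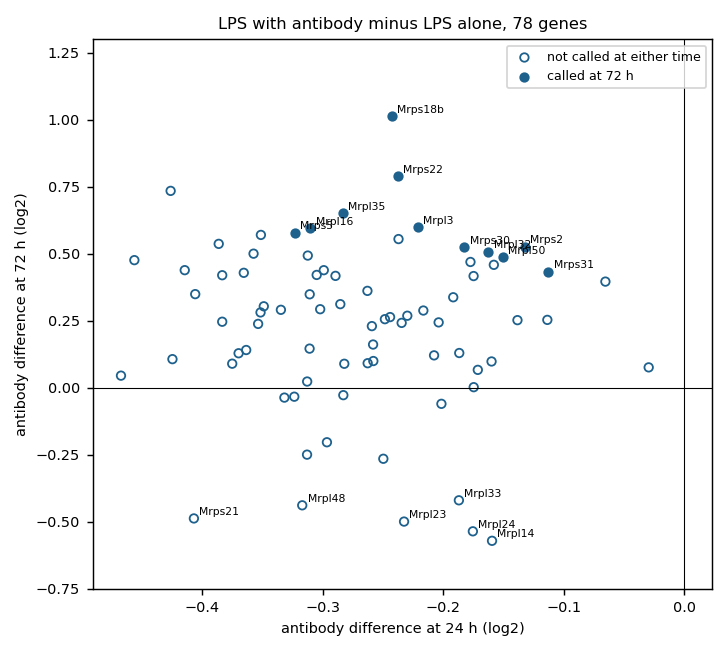
Log2 difference between LPS with antibody and LPS alone for each of the 78 genes, at 24 h (horizontal axis) and at 72 h (vertical axis); filled circles passed the edgeR threshold of 0.05 at 72 h. All points lie left of 0 at 24 h, a position that turns for 55 of 78 genes without LPS 24 h replicate 1, and 65 of 78 lie above 0 at 72 h.

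Whether the antibody difference itself changed from 24 to 72 h was tested as an interaction in the same edgeR fit. It was called for 4 of 78 members, each higher at 72 h, where 4.03% of all genes were called in that direction and 2.32% in the other, so the members' share of 5.13% was near the background. They were Mrps18b (1.25, SE 0.34, edgeR adjusted p = 0.0388), Mrps22 (1.03, edgeR adjusted p = 0.0388), Mrps5 (0.90, edgeR adjusted p = 0.0437) and Mrpl3 (0.82, edgeR adjusted p = 0.0261). The median over members was 0.52, and 0.17 without LPS 24 h replicate 1. None of the 4 stayed called when only the 4 LPS groups were fitted. Calls fell to 0 without antibody 24 h replicate 1 or 3, LPS 72 h replicate 1 or antibody 72 h replicate 3. Without LPS 24 h replicate 1 or LPS 72 h replicate 3, Mrpl3 was the 1 member called. Without LPS 72 h replicate 2 the 1 member called was none of these 4, whereas 14 were called without LPS 24 h replicate 2. The shares of all genes called in these fits are not given, so a general gain or loss of calls cannot be told apart.

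Within antibody-treated animals no member was called between 24 and 72 h. EdgeR called 0 of 78, with 2 at an unadjusted p below 0.05, and DESeq2 called 0. Of all 14920 genes edgeR called 0, and 4.26% had an unadjusted p below 0.05. This fit did not pair the libraries. Those with the same number deviated together over genes for replicates 1 and 3 (r = 0.723 and 0.697) but not for replicate 2 (-0.0217). The median log2 change was -0.22, and 19 members had all 72 h libraries below all 24 h libraries, against 4.38% of all genes. The interaction reported above is also the test of the difference between this time course and that of LPS alone, and it called 4 members.

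The rise at 24 h extended to other genes of mitochondrial gene expression. All 5 mitochondrial ribosome proteins with names outside the Mrp series were higher after LPS at 24 h: Chchd1 (log2 change 1.15), Gadd45gip1 (1.07), Ptcd3 (0.88), Aurkaip1 (0.84) and Dap3 (0.69), the last a GTP-binding protein of the small subunit also known for a role in cell death. Chchd1 was at 56.2, 48.2, 38, 48.7 and 43.4 CPM after PBS and at 173, 66.2 and 73.5 CPM after LPS, without overlap. In the absence of LPS 24 h replicate 1, 4 of the 5 were called.

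Factors that build the ribosome were higher for 13 of 24 genes and lower for 0 (median 0.47), led by Fastkd2 (1.02), an RNA-binding protein needed for the large subunit, and Mrm3 (0.97), a methyltransferase of the large ribosomal RNA. Factors that run translation were higher for 10 of 15 tested and lower for 0 (median 0.49). The greatest changes among them were in the elongation factor pair Tsfm (1.24, edgeR adjusted p = 0.0007) and Tufm (1.15, edgeR adjusted p = 0.00212). Tufm was at 129, 95.2, 91.2, 126 and 92.1 CPM after PBS and at 306, 203 and 204 CPM after LPS. Of 20 mitochondrial aminoacyl-tRNA synthetase genes, which charge tRNAs with amino acids, 10 were higher and 0 lower (median 0.55), with Yars2 at 0.98 and Rars2 at 0.83. Of 10 genes for copying and transcribing mitochondrial DNA 6 were higher and 0 lower (median 0.41), including the topoisomerase Top1mt (0.89) and the single-strand binding protein Ssbp1 (0.70). Of all genes tested, 19.1% were called higher in this comparison. Leaving LPS 24 h replicate 1 out, the counts were 7 of 24 assembly factors, 8 of 15 translation factors, 8 of 20 synthetases and 3 of 10 DNA genes. The lower share of all genes in that fit is given above with its member count.

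The products of mitochondrial DNA could not be followed. All 13 messages encoded there were listed at 0 in every library, and the 2 ribosomal RNAs were not among the rows of the table used here, so nothing is said of them.

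**Figure D5:**
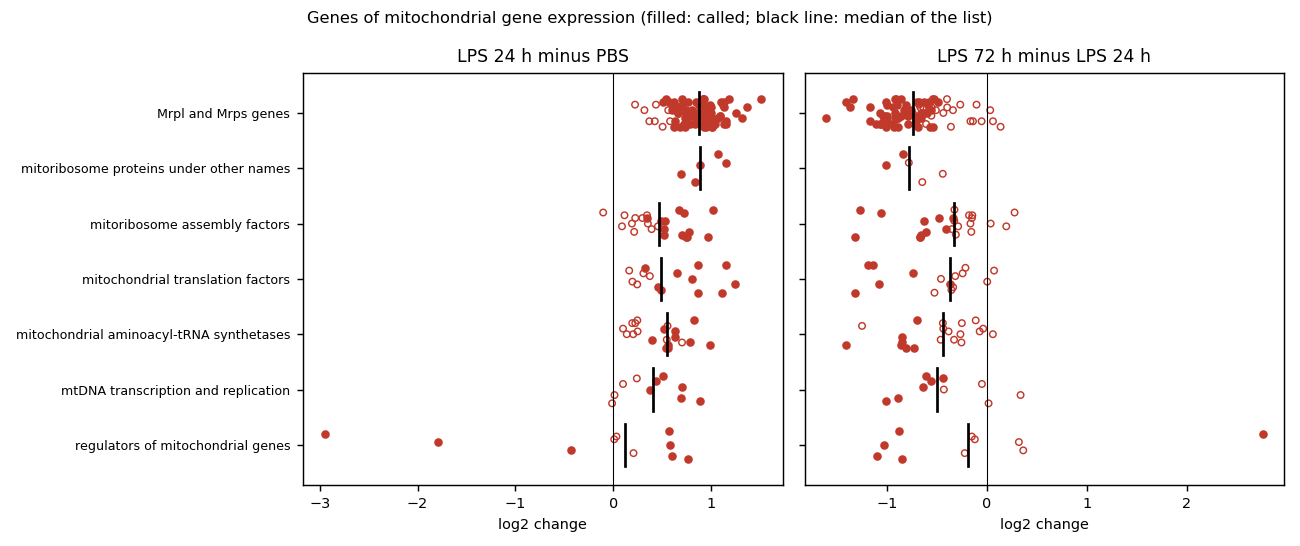
Log2 change of each gene in the Mrpl and Mrps set and in 6 lists of genes for mitochondrial gene expression, for LPS at 24 h against PBS (left) and LPS at 72 h against LPS at 24 h (right); filled circles passed the edgeR threshold of 0.05 and black lines mark the list median. Medians of the 5 lists of proteins lie between 0.41 and 0.88 on the left and below 0 on the right, and the list of regulators spreads to both sides.

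Regulators of mitochondrial genes did not move as a block. At 24 h after LPS, 4 of 10 were higher and 3 lower, where 19.1% of all genes were called higher and 18.5% lower. The higher genes were Esrra (0.77), a nuclear receptor that drives mitochondrial genes, Pprc1 (0.60) and Ppargc1b (0.58), coactivators of the PGC-1 family, and Myc (0.57), a growth regulator. Lower were Mycn (-1.79), Gabpb1 (-0.44), a subunit of the ETS factor GABP, and Ppargc1a, which was barely expressed, at 0.501 to 1.97 CPM after PBS and 0, 0.412 and 0 CPM after LPS. Nrf1 (0.21), Gabpa (0.01) and Yy1 (0.03), whose motifs were counted in the promoters, passed no test.

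Pprc1 was at 124, 86.3, 98.2, 97.6 and 95.4 CPM after PBS, 143, 144 and 170 CPM after LPS at 24 h and 60.7, 63.3 and 88.7 CPM at 72 h, so that it fell between the times (-1.10, edgeR adjusted p = 0.00191). Esrra (-0.85), Ppargc1b (-1.03) and Myc (-0.88) fell as well, and Ppargc1a, at 0.761 to 1.56 CPM at 72 h, was called higher. With the antibody at 72 h, 3 of 10 regulators were higher than after LPS alone, where 8.64% of all genes were called higher. They were Ppargc1b (0.92, edgeR adjusted p = 0.0103), Pprc1 (0.88, edgeR adjusted p = 0.0155) and Myc (0.69, edgeR adjusted p = 0.0497). Ppargc1b was also called in the interaction (1.03, edgeR adjusted p = 0.0482).

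From 24 to 72 h after LPS the other lists fell too: 11 of 24 assembly factors, 6 of 15 translation factors, 7 of 20 synthetases, 6 of 10 DNA genes and 2 of 5 ribosome proteins under other names were lower, and 0 in these lists were higher. Of all genes tested, 16.4% were called lower. Without LPS 24 h replicate 1 the counts in these lists were 4, 6, 6, 5 and 1, and 1 DNA gene was higher. The 4 of 24 assembly factors were then not far from the share of all genes in that fit, given above. The cytosolic ribosomal protein genes differed in direction, with a median of 0.24, 1 of 81 higher and 3 lower. Without that library 46 of 81 were higher and 2 lower. The share of all genes called higher in that fit is not given. A general gain of calls can therefore not be told apart, for these genes or for the 1 DNA gene.

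With the antibody at 72 h, against LPS alone, 2 of 24 assembly factors, 3 of 15 translation factors, 4 of 20 synthetases and 1 of 10 DNA genes were higher and 0 were lower, where 8.64% of all genes were called higher. The shares of the assembly factors and DNA genes were thus near the background, and none of the 5 ribosome proteins under other names passed the test. The elongation factor Gfm1 (1.11, edgeR adjusted p = 0.00122) and Iars2 (0.91, edgeR adjusted p = 0.00122), named here after their values were seen, had the greatest changes in those 4 lists together with Yars2 (0.95, edgeR adjusted p = 0.00455).

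Levels between members were compared per length, as CPM per kilobase of exon in PBS. The median was 18 and the range 4.09 to 66.5. Mrpl18, which also carries 5S RNA into mitochondria, was at 66.5, Mrpl12 at 65.4, Mrpl34 at 60.1, Mrps21 at 58.9 and Mrpl24 at 45.6 CPM per kilobase, so the greatest responder Mrpl12 was also among the members with the highest baseline. Mrps35 at 4.09, Mrps10 at 4.50, Mrps30 at 5.17, Mrpl1 at 5.26 and Mrpl32 at 5.53 CPM per kilobase were lowest. Exon lengths came from the merged exons of all annotated transcripts, 607 to 8631 bases with a median of 2394, so a gene with long unused exons reads low.

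The members are spread over the genome: they lie on 17 chromosomes, with 11 of them on chromosome 11. On GRCm38 (GENCODE M21) Mrpl12 spans chr11:120484613-120489065 on the plus strand and Mrps18b chr17:35910379-35916389 on the minus strand. Mrpl16 lies at chr19:11770391-11774960 (plus), Mrps22 at chr9:98588730-98601660 (minus), Mrpl3 at chr9:105053239-105079888 (plus) and Mrpl14 at chr17:45686322-45698495 (plus). For 31 members an exon overlaps an exon of another gene of the table, over more than 10% of the exon length for 16. Mrpl53 lies for 88.0% within Gm42688, Mrps34 for 63.4% across Mapk8ip3, Mrpl43 for 33.4% across Twnk and Mrps18b for 30.5% across Gm16279. A further limit is sequence: 25 members share at least 100 bases at 95% identity or more with an annotated pseudogene. Counts of these members, among them Mrps18b and Mrps5, are uncertain to the extent that reads were split with those copies.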

How the data were processed

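RNA-seq gene counts were analysed for 17 libraries of sorted mouse HSPCs. The authors deposited 1 table of raw counts per gene, named by symbol. The submitters' processing notes name HISAT2 2.2.0, Subread, featureCounts 2.1.1, R 4.3.2, DESeq2 and GRCm38; the gene annotation and strand setting are not given in the sources used here. Totals ran from 10516722 to 16006001 counts.

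Groups came from the sample titles. Genes were filtered with filterByExpr, which left 14920, scaled by TMM and fitted in 1 edgeR 4.0.16 quasi-likelihood model (R 4.3.3) with a mean per group. Adjusted p-values (Benjamini-Hochberg) cover all genes tested, with a threshold of 0.05; SE is the log2 change divided by the root of F. Log2 CPM used a prior count of 2. The steps were tested on simulated data. Members are not replicates, so lists are described by counts and medians. Members and lists were chosen with earlier results of these data known. Named members were the 12 with the greatest called rise at 24 h, up to 5 per direction in other comparisons, the extremes of level, 7 with a separate role, and those never called; up to 2 genes per direction were named in other lists. Coordinates, exon lengths, overlaps and copies are from GENCODE M21 on GRCm38, with 78 of 78 symbols matched.

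Replicates differed from one another by more than sampling noise, so none was merged. Same-numbered libraries deviated together in LPS 24 h and PBS (r from 0.158 to 0.191 over genes), which by the rule used here pairs the 3 shared numbers of those groups. In no other comparison did every pair exceed 0.1. The highest single values were between antibody 24 h and 72 h, at 0.723 and 0.697 for replicates 1 and 3, with -0.0217 for replicate 2. Alternatives were RLE (DESeq2) factors, upper-quartile factors, no factors, no low-count filter, only the groups compared, a replicate block, DESeq2 1.42.0, each library left out, both 24 h libraries numbered 1 left out and, for log2 CPM, a prior count of 0.5. List counts without LPS 24 h replicate 1 were added after seeing the data.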

Additional observations from a re-analysis of the deposited data

Results flagged for a closer look

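The difference between LPS with antibody and LPS alone was larger at 72 h than at 24 h for 4 of 78 members (5.13%) by the interaction test in edgeR, where 4.03% of all genes were called in that direction. The difference of differences was 1.25 on the log2 scale for Mrps18b, 1.03 for Mrps22, 0.90 for Mrps5 and 0.82 for Mrpl3. For Mrps18b the 3 antibody libraries at 72 h exceeded the 3 LPS libraries, while at 24 h the groups overlapped. None of the 4 kept its call when only the 4 LPS groups were fitted, none kept it with the replicate number as block, and 1, Mrpl3, kept it without LPS 24 h replicate 1. In the 5 PBS libraries no library stood apart, by the gap to its neighbour, for the mean level or for the 29 members examined, where chance gives about 1 in 20.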

How the results depend on the processing

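The median rise after LPS at 24 h stayed above 0 in every alternative run: 54 (without LPS 24 h replicate 1) to 72 members were called with 1 library left out, and the median ran from 0.56 to 1.02. With plain CPM its median was 0.61, beside a median over all genes of -0.25, and without both 24 h libraries numbered 1 it was 0.56; upper-quartile scaling moved the median of all genes to -0.16 and that of the members to 0.73. The replicate block called 62 there, losing Mrpl34, Mrpl42, Mrpl44, Mrpl48, Mrpl49, Mrpl58, Mrps14 and Mrps6, 49 from 24 to 72 h after LPS, 20 for antibody 24 h and 1 for antibody 72 h against PBS, 5 for antibody against LPS at 72 h and 0 in the interaction, and it changed no other count by over 1.5 times. Only PBS and LPS 24 h libraries are paired by the rule used here. Between antibody 24 h and 72 h, r was 0.723 and 0.697 for replicates 1 and 3 but -0.0217 for replicate 2, so the rule left them unpaired. Each of 6 libraries correlated best with its own number in antibody 72 h against PBS, but 0 of 6 did for antibody against LPS at 24 h. Whether a shared number marks a link between samples was not tested.

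With 1 library left out, calls ranged from 12 to 54 for antibody 24 h and 2 to 20 for antibody 72 h against PBS, 28 to 63 from 24 to 72 h after LPS (median -0.90 to -0.43), 1 to 8 for antibody against LPS at 72 h and 0 to 14 in the interaction (median 0.17 to 0.71). The median of antibody against LPS at 24 h ran from -0.42 to 0.078. Without both 24 h libraries numbered 1 it was 0.11, the fall from 24 to 72 h after LPS had 31 calls and a median of -0.43, and the interaction had 0 calls and a median of 0.14. Fitting only the groups compared gave 37 calls for that fall, 26 for antibody 72 h against PBS and 0 in the interaction. Antibody against LPS at 72 h had 6 calls with upper-quartile factors, 18 with plain CPM and 6 with no filter on low counts; the interaction had 8 with plain CPM, 2 with no filter and 15 with DESeq2. The share of all genes called is given above for only some of these fits, so elsewhere a general gain or loss of calls cannot be told apart. The cause of these differences was not tested.

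The 36 named member results gave 562 pairs of a result and an alternative setting, of which 469 kept the call, 93 lost it and 0 reversed. Groups of 3 libraries limit precision, and the mean of 21.3 CPM of Mrps6, the lowest member, limits it further.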

Other observations

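Splitting the members at the median exon length gave median log2 changes of 0.91 for the 39 shorter and 0.85 for the 39 longer genes after LPS at 24 h. The corresponding values were 0.59 and 0.59 for LPS with antibody at 24 h, and 0.33 and 0.43 for LPS with antibody at 72 h. Summed over the members, the level was 3476 ± 403 CPM (SD, n = 5) after PBS and 5208 ± 328 CPM (n = 3) after LPS with antibody at 24 h. Among the PBS libraries, replicates 1 and 4 had the highest mean member levels.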
